A study of Mus musculus with 22 samples.

Results

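A set of 9 genes grouped as club cell products of the mouse airway was followed in mouse lungs. The lungs were exposed to PBS, methacholine (MCh) or ovalbumin (OVA) aerosol. Which lung cells made each transcript was not measured. The 9 members, taken by gene symbol from a table of 20938 genes, were Scgb1a1, Scgb3a1, Scgb3a2, Bpifa1, Bpifb1, Reg3g, Cbr2, Aldh1a1 and Lypd2. All 9 were among the 15682 genes that passed the filter on low values and were tested.

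RNA was measured in 22 lung libraries from BALB/c mice, and a short and a long protocol each had 4 OVA, 4 MCh and 3 PBS libraries. Per the treatment labels, every mouse, controls included, received a sensitizing intraperitoneal injection when 49 days old and a booster at 63 days. Aerosols began at 70 days and were given on 3 consecutive days (short) or 3 times a week for 4 weeks (long). PBS is the salt buffer control, MCh is a cholinergic agonist that narrows the airways, and OVA is the allergen of this asthma model. The labels give no genotype beyond the strain and no separate age at harvest. Titles conflict with the treatment text at 2 points: they give 4 days for short MCh, and they call the PBS and MCh mice normal. The series design names trachea, whereas each sample is labelled lung.

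Club cells are dome-shaped secretory cells of the conducting airway that coat its surface with small secreted proteins, detoxify inhaled compounds and can give rise to ciliated and goblet cells. Secretoglobins are small secreted dimers, and Scgb1a1 is the classic club cell protein. Bpifa1 and Bpifb1 belong to a family of secreted proteins that bind bacterial lipids, and Reg3g is a secreted lectin directed at Gram-positive bacteria. Cbr2, a carbonyl reductase, and Aldh1a1, which makes retinoic acid from retinaldehyde, are enzymes kept inside the cell and not secreted. Lypd2 belongs to the Ly6/PLAUR family of small, mostly membrane-anchored proteins.

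The values are FPKM, fragments per kilobase of transcript scaled to a library's mapped total, as deposited. Scgb1a1 ranked 1 among all genes in 22 of 22 libraries and made up 6.15 to 9.48% of the summed FPKM, and Cbr2 ranked between 2 and 8, so club cell transcripts were plentiful in every library. Alveolar type 2 markers were present in every group as well, with a summed FPKM of 13619 to 25266 over 8 genes, as labelled lung tissue would hold. Of 8 cartilage markers, the tissue that stiffens the trachea, only 2 passed the filter, and their summed FPKM over all 8 did not exceed 3.09 in any library. In bulk tissue fewer cells of a type and less RNA per cell cannot be told apart.

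Some libraries stood apart from the rest. Between 22.5 and 25.3% of genes were listed at 0 in 19 libraries, against 34.3% and 33.8% in libraries a and c of long MCh and 28.3% in library 1 of short MCh. In short MCh library 4 and in all 4 short OVA libraries the values tilted with transcript length: Spearman's rho across genes, between length and the library's difference from the mean library, was -0.649 in the former and -0.398 to -0.480 in the latter. It lay between -0.029 and 0.460 in the other libraries. Libraries of long MCh and long OVA, whose columns show the group but no matching replicate number, carry the letters a to d. Whether mice were caged or processed in batches was not given, and p-values measure the spread between these libraries.

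The members Bpifa1, Bpifb1, Reg3g and Scgb3a1 varied together from library to library, and the sequences before their start sites are therefore shown here. Each is the stretch from 250 bases before to 50 bases after the start, taken from RefSeq on GRCm38.p6 and read 5′ to 3′ on the gene's strand. Of the 9 members 6 had an entry (Scgb1a1, Scgb3a2 and Lypd2 had none). Bpifb1 has 2 starts, and the one shown is at the start of the annotated gene. Bpifa1 lies at chr2:154142630-154142929 (+), Bpifb1 at chr2:154190568-154190867 (+), Reg3g at chr6:78468825-78469124 (-) and Scgb3a1 at chr11:49663345-49663644 (+). Capitals mark matches to the motifs named after the sequences.
Bpifa1: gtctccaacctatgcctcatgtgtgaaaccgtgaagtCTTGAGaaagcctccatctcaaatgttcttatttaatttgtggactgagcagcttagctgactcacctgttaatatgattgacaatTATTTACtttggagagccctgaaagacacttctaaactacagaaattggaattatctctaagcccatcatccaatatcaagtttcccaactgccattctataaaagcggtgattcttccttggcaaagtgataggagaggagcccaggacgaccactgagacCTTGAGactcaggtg
Bpifb1: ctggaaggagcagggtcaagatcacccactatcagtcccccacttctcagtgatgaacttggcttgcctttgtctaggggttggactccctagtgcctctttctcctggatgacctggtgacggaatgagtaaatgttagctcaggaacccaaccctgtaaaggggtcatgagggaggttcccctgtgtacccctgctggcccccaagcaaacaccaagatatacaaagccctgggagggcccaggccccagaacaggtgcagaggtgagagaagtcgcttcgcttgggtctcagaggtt
Reg3g: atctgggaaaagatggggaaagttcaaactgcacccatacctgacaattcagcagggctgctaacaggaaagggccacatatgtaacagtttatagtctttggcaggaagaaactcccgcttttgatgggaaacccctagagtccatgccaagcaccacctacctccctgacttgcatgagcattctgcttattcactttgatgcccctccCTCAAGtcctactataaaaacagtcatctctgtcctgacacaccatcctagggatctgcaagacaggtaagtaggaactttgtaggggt
Scgb3a1: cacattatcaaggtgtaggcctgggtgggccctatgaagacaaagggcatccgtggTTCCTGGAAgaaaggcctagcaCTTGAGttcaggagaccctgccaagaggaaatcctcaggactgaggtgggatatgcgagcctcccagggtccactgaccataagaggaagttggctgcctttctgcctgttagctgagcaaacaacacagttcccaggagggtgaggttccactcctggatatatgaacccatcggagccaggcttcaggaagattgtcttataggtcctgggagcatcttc

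A total of 5 motifs were searched on both strands, and none of the marked matches overlap. CTCAAG, a core letter string of NKX2-1 sites, occurred in the windows of Bpifa1, 213 bases before the start and again 35 bases after it, Reg3g, 39 bases before, and Scgb3a1, 172 bases before. On the opposite strand it reads CTTGAG. The string is common: 15.9% of 32851 promoter windows of the same length held it. TATTTAC, a forkhead (FOXA) string, occurred 127 bases before the Bpifa1 start and is held by 3.04% of windows. TTCNNNGAA, the STAT string, occurred 194 bases before the Scgb3a1 start and is held by 8.30% of windows. TGTTTAC, held by 3.65% of windows, and TTGCNNAA, a C/EBP string held by 10.8%, had no match in these 4 windows. The Bpifb1 window shown held none of the 5 strings, whereas the window of its other start, at chr2:154200130-154200429 (+), held TATTTAC 110 bases before that start and the STAT string 146 bases before it. A match of letters is a description of the window and not evidence of binding.

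The coordinates that follow are from GENCODE vM21 on the same build, and each is a protein-coding gene. Bpifa1 (chr2:154142880-154149219) and Bpifb1 (chr2:154190818-154220369) are neighbours in one orientation, 41598 bases apart. Reg3g lies at chr6:78466269-78468872, Scgb3a1 at chr11:49663610-49665118, Cbr2 at chr11:120729489-120732114, Lypd2 at chr15:74732247-74734329, Scgb1a1 at chr19:9083636-9087958 and Aldh1a1 at chr19:20492715-20643465. Aldh1a7, a close copy of Aldh1a1, lies past the end of Aldh1a1 on the opposite strand, with 49487 bases between them.

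In median FPKM over the 22 libraries, a scale set per length, Scgb1a1 (41546) was followed by Cbr2 (4360), Aldh1a1 (1015), Scgb3a2 (206), Scgb3a1 (87.2), Bpifa1 (59.3), Bpifb1 (25.4), Lypd2 (18.5) and Reg3g (3.36). Over the 22 libraries the ranges of Scgb1a1, Cbr2, Aldh1a1 and Scgb3a2 were apart from one another, whereas from Scgb3a2 on each member overlapped the next. The order also depended on which deposited table was read: summed over transcripts, the medians were 1054 for Scgb3a2, against 838 for Aldh1a1, and 32.4 for Reg3g, against 26.2 for Bpifb1. The ratio of the 2 tables was nearly constant within a gene and differed between genes, from 0.104 for Reg3g to 1.22 for Aldh1a1. Comparisons of a gene with itself across libraries are therefore little affected, and levels of Reg3g are lower than its transcript values throughout.

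The members fell into a steady and a variable set. Across all 22 libraries the highest value was 1.72 times the lowest for Scgb1a1, 2.01 times for Aldh1a1 and 3.61 times for Cbr2. It was 1095 times for Bpifa1, 253 times for Reg3g, 75.2 times for Bpifb1 and 36.7 times for Scgb3a1. Scgb3a2 (7.25 times) and Lypd2 (10.7 times) lay between. Much of the spread was within groups, since Bpifa1 varied 133-fold among the 4 short MCh libraries and Reg3g 110-fold among the 4 long OVA libraries.

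**Figure D1:**
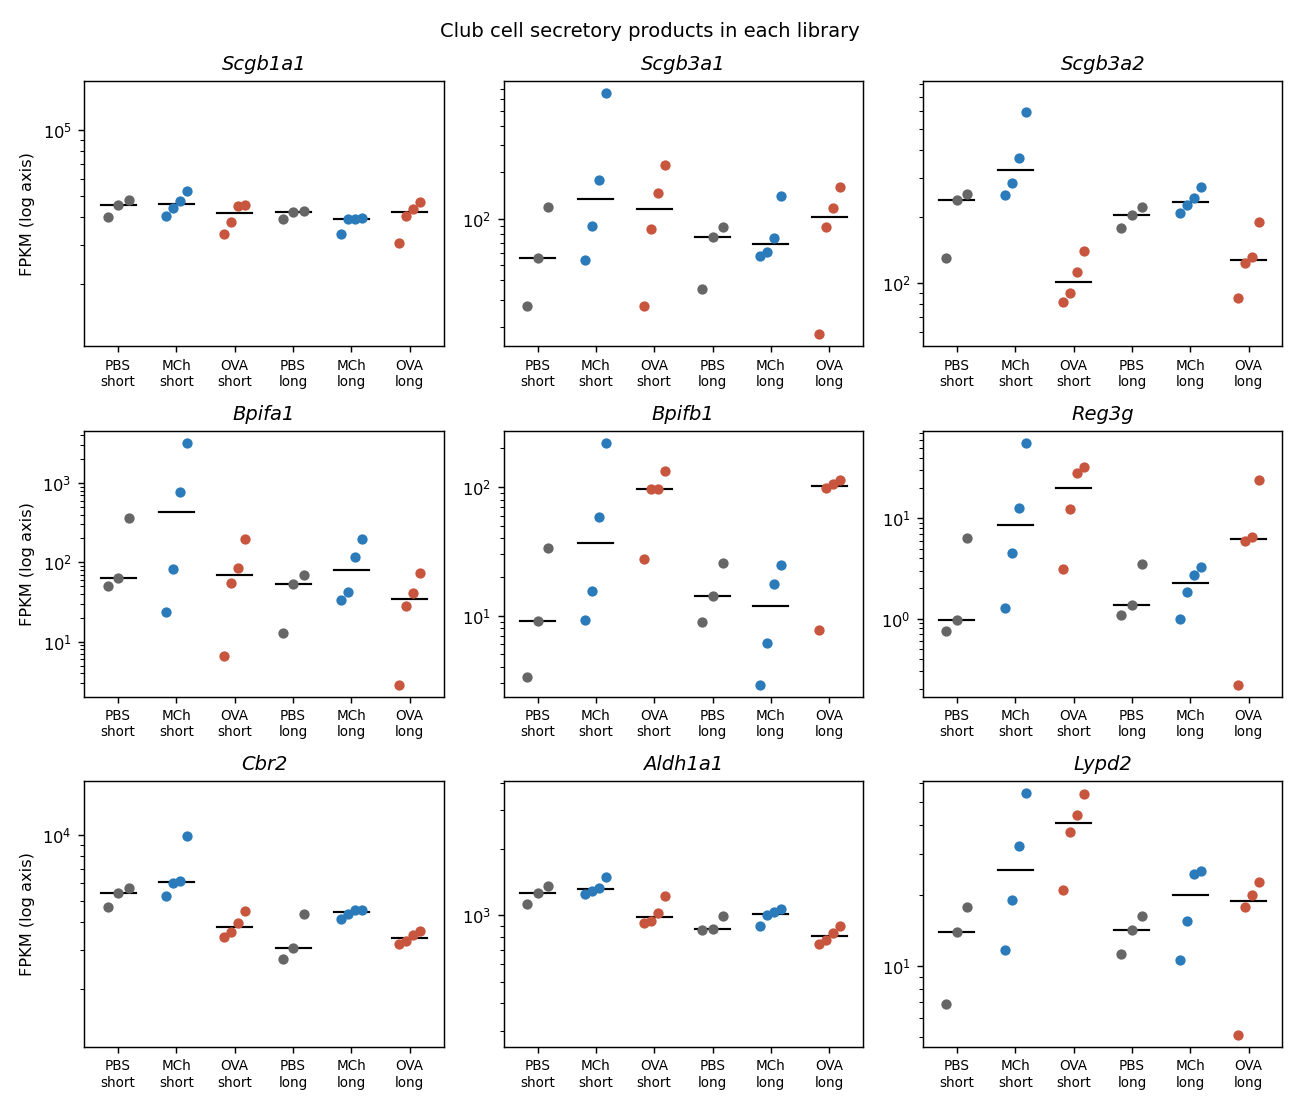
FPKM on log axes of the 9 members in each library (points), with the group median as a bar, for PBS, MCh and OVA in the short and long protocols. Scgb1a1 stays between 30695 and 52948, whereas Bpifa1 ranges from 2.89 to 3163 and Scgb3a2 is lowest in the OVA groups.

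In the short protocol, between OVA and PBS, Scgb3a2, a secreted secretoglobin of the club cells, fell, and Lypd2 rose. The other 7 members did not pass the test, although Bpifb1 and Reg3g had the largest differences of the set. Thus 2 of 9 members were called, at a Benjamini-Hochberg adjusted p under 0.05 in limma, against 24.2% of all genes tested, so the share called was near the background. By direction, 1 was higher (12.4% of all genes) and 1 lower (11.7%), and the median difference was -0.13 on the log2 scale over the members and -0.06 over all genes. At an unadjusted p under 0.05 in limma there were 6 members and 5661 of all genes tested.

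Scgb3a2 stood at 239, 253 and 130 FPKM in short PBS libraries 1 to 3 and at 90.4, 82.0, 139 and 112 in short OVA libraries 1 to 4. The OVA values were low as a group, and the overlap came from the third PBS library, which was below the third OVA library. The mean was 207 ± 67.3 (SD, n = 3) for PBS and 106 ± 25.7 (SD, n = 4) for OVA, a log2 difference of -0.94 ± 0.29 (SE, adjusted p = 0.0221, limma). The call was lost without PBS library 1 (adjusted p = 0.0941), PBS library 2 (0.109), OVA library 1 (0.0643) or OVA library 2 (0.0664), each time with the same direction.

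Lypd2 stood at 13.9, 17.9 and 6.89 FPKM in short PBS and at 43.8, 21.1, 54.2 and 37.3 in short OVA. Every OVA library was above every PBS library, a separation that 23.2% of all tested genes showed in this direction. The log2 difference was 1.58 ± 0.51 (SE), or 3.00-fold on FPKM + 0.5, with an adjusted p of 0.0283 in limma. Lypd2 has a short transcript, of 513 bases, and short OVA libraries favoured short transcripts. With each library's trend with length removed, the difference was 1.07 ± 0.49 and the adjusted p 0.126. The call was also lost with no filter on low values (adjusted p = 0.0544) and without PBS library 1 (0.0534) or 3 (0.168) or OVA library 1 (0.0726), 3 (0.0749) or 4 (0.0515).

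Bpifb1 stood at 9.08, 33.8 and 3.35 FPKM in short PBS and at 97.0, 27.3, 132 and 95.8 in short OVA. OVA libraries 1, 3 and 4 were above all PBS libraries, and OVA library 2 was within their range. This gave a log2 difference of 2.83 ± 1.05 (SE, adjusted p = 0.0569, limma). The call was gained without OVA library 2 (adjusted p = 0.0434) or PBS library 2 (0.0338), and without the 3 libraries with most genes at 0 (0.0225), none of which is in either group. In all, 8 of the 21 settings of this comparison called Bpifb1, with a lowest adjusted p of 0.00601 (limma).

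Reg3g stood at 0.966, 6.29 and 0.757 FPKM in short PBS and at 28, 3.11, 32.2 and 12.5 in short OVA. The same pair of libraries, PBS 2 and OVA 2, made the groups overlap. The log2 difference was 2.64 ± 1.09 (SE, adjusted p = 0.0838, limma), and 3.31 with an adjusted p of 0.0434 without OVA library 2. It was also called without the 3 libraries with most genes at 0 (0.0459), and in all by 5 of the 21 settings, with a lowest adjusted p of 0.0171 (limma). OVA library 2 had the lowest summed FPKM of its group for 10 goblet cell markers (442), 15 ciliated cell markers (816) and 8 cardiac muscle markers (60.0). PBS library 2 had the highest of its group for the same lists (76.0, 1255 and 549). The part of these markers in the result was not tested.

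Bpifa1, the neighbour of Bpifb1, stood at 49.7, 363 and 64.3 FPKM in short PBS and at 84.5, 6.59, 197 and 54.4 in short OVA. The groups overlapped over most of their range, and the log2 difference was -1.06 ± 1.41 (SE, adjusted p = 0.636, limma). Scgb3a1 stood at 56.0, 120 and 27.1 in short PBS and at 147, 27.3, 224 and 85.6 in short OVA, also overlapping, with a log2 difference of 0.72 ± 0.82 (SE, adjusted p = 0.574, limma). Scgb1a1 itself differed by -0.13 ± 0.30 (adjusted p = 0.794, limma), from a mean of 44421 ± 3923 (SD, n = 3) in PBS to 40694 ± 5755 (SD, n = 4) in OVA. Its transcript, of 476 bases, is also short. Over the 21 settings of this comparison its log2 difference reached -0.66 at the lowest. None of them called it, and the lowest adjusted p was 0.0734 (limma). Quantile normalization, one of these settings, could not call it, since a gene ranked 1 in all 22 libraries gets the same value in each.

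The enzymes were lower in short OVA without passing the test. Cbr2 stood at 5702, 5431 and 4691 FPKM in short PBS and at 3441, 3632, 4504 and 3990 in short OVA. Every OVA library was below every PBS library, as in 29.2% of all genes tested in this direction, and the log2 difference was -0.44 ± 0.20 (SE, adjusted p = 0.116, limma). Aldh1a1 stood at 1266, 1359 and 1130 in PBS and at 923, 943, 1228 and 1026 in OVA, overlapping through the third OVA library, with a log2 difference of -0.29 ± 0.12 (SE, adjusted p = 0.0909, limma). With the trend with length removed, the difference was -0.74 ± 0.17 (adjusted p = 0.00308, limma) for Cbr2, -0.35 ± 0.11 (0.0366) for Aldh1a1 and -1.42 ± 0.28 (0.00114) for Scgb3a2.

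**Figure D2:**
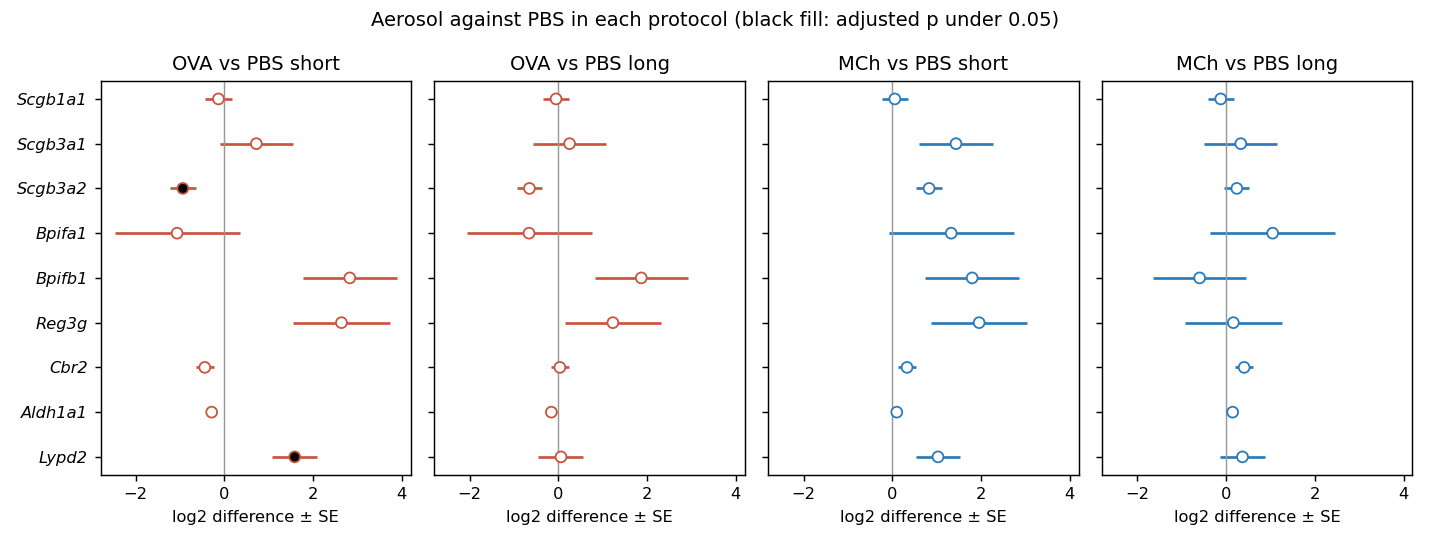
Log2 differences (points) with their standard errors (bars) for the 9 members, OVA or MCh minus PBS, in each protocol; black points have an adjusted p under 0.05 in limma. Scgb3a2 at -0.94 and Lypd2 at 1.58 in short OVA are the black points.

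In the long protocol no member was called between OVA and PBS, where 1.18% of all genes were called. At an unadjusted p under 0.05 there was 1 member, Scgb3a2, and 1164 of all genes tested. Scgb3a2 stood at 177, 204 and 222 FPKM in long PBS and at 124, 85.1, 189 and 131 in long OVA libraries a to d. OVA libraries a, b and d were below all PBS libraries, and the log2 difference was -0.65 ± 0.29 (SE, adjusted p = 0.555, limma).

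Bpifb1 stood at 8.89, 25.8 and 14.2 FPKM in long PBS and at 106, 7.73, 114 and 97.8 in long OVA. OVA libraries a, c and d were above the highest PBS library, while library b was below the lowest. On the log2 scale the groups differed by 1.87 ± 1.05 (SE, adjusted p = 0.851, limma) with library b and 2.79 ± 0.98 (adjusted p = 0.320) without it.

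Reg3g stood at 1.09, 3.48 and 1.37 FPKM in long PBS and at 24.3, 0.221, 5.95 and 6.55 in long OVA, again with library b below PBS and the other 3 above. Its log2 difference was 1.23 ± 1.09 (SE, adjusted p = 1, limma), and 2.19 ± 1.01 (0.636) without library b. Long OVA library b was the lowest of its group for 7 of the 9 members, all but Cbr2 and Aldh1a1. It was also lowest for the 10 goblet cell markers, with a summed FPKM of 164 against 1128 to 1172 in the other 3 libraries, for the 15 ciliated cell markers, with 893 against 1059 to 1090, and for the 8 cardiac muscle markers, with 30.7 against 94.9 to 154; their part in the result was not tested.

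The OVA effects in the long and short protocols were compared by an interaction term. No member passed it, against 1.88% of all genes; Lypd2 had the smallest p among the members (difference of effects -1.52 ± 0.72, unadjusted p = 0.0465, adjusted p = 0.320, limma). Lypd2 stood at 11.3, 16.3 and 14.3 FPKM in long PBS and at 17.9, 5.1, 20 and 22.8 in long OVA. OVA libraries a, c and d were above PBS here too, but none reached the second lowest value of short OVA, 37.3.

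Between MCh and PBS no member was called in the short protocol, where 1 gene of all tested (0.00638%) passed, and none in the long protocol, where 10 (0.0638%) passed. Without long MCh library d, 781 genes and no member passed in the long protocol. At an unadjusted p under 0.05 there was 1 member and 1175 of all genes in the short protocol, and no member and 2551 of all genes in the long. All 9 differences were above 0 in the short protocol, with a median of 1.03 over the members and -0.05 over all genes.

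The short MCh libraries differed widely among themselves. Bpifa1 stood at 3163, 777, 23.8 and 83.0 FPKM in libraries 1 to 4, so that libraries 1 and 2 were above and library 3 below every short PBS library. Bpifb1 stood at 219, 58.3, 9.17 and 15.7, Reg3g at 55.9, 12.6, 1.29 and 4.50, and Scgb3a1 at 654, 179, 53.7 and 90.0, in the same order of libraries each time. Library 1 had the highest value of its group for 6 of the 9 members and was one of the 3 libraries with most genes at 0.

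The log2 differences of short MCh were 1.33 ± 1.41 for Bpifa1, 1.80 ± 1.05 for Bpifb1, 1.96 ± 1.09 for Reg3g and 1.44 ± 0.82 for Scgb3a1. Without library 1 they were 0.14, 0.95, 1.08 and 0.74. That library also held the highest summed level of 6 airway basal cell markers, 32.9 FPKM against 5.26 to 10.9 in the other 3, of the goblet cell markers, 475 against 43.1 to 116, and of the ciliated cell markers, 1474 against 1200 to 1366. Its summed level of 8 cardiac muscle markers, 728 FPKM against 74.5 to 495 in the other 3, was the highest of all 22 libraries; their part in the result was not tested.

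Scgb3a2 stood at 594, 284, 251 and 370 FPKM in short MCh, and 3 of these libraries were above all PBS libraries. The log2 difference was 0.83 ± 0.29 (SE, adjusted p = 0.530, limma), and 0.58 without library 1. In long MCh it stood at 273, 243, 209 and 226, which overlapped long PBS, with a log2 difference of 0.24 ± 0.29 (adjusted p = 0.699, limma). The other members in long MCh differed by -0.60 (Bpifb1) to 1.05 (Bpifa1), and no member was without overlap with PBS, against 13.1% of all genes. The MCh effect did not pass an interaction test between protocols for any member or any gene, and at an unadjusted p under 0.05 in limma there was no member and 989 of all genes.

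OVA was also set against MCh. In the short protocol 3 of 9 members were lower in OVA and none higher, against 15.2% of all genes called in either direction and 5.82% called lower. The 3 were Scgb3a2, Cbr2 and Aldh1a1. In each the groups did not overlap, as in 6.30% of all genes in this direction.

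Scgb3a2 had a mean of 106 ± 25.7 FPKM (SD, n = 4) in OVA and 375 ± 154 (SD, n = 4) in MCh, a ratio of 0.283, with a log2 difference of -1.77 ± 0.26 (SE, adjusted p = 8.7e-05, limma). It was called without any one library and under every alternative run for this comparison. Cbr2 stood at 6031, 5246, 6158 and 9882 in short MCh, all above the highest OVA value of 4504. It differed by -0.77 ± 0.19 on the log2 scale (SE, adjusted p = 0.00632, limma), and it lost the call with no filter on low values (0.303) and when only these 2 groups were fitted (0.105).

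Aldh1a1 stood at 1337, 1250, 1287 and 1495 FPKM in short MCh, and its highest OVA library, at 1228, was just below them. Its log2 difference was -0.39 ± 0.11 (SE, adjusted p = 0.0220, limma). The call was lost without OVA library 1 (0.0888) or 2 (0.0748), with median-of-ratios scaling (0.0563), without the 4 libraries of lowest array weight (0.0502) and when only the 2 groups were fitted (0.156).

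In the long protocol no member was called between OVA and MCh, against 6.06% of all genes. Those 951 genes became 2403 without long MCh library d, 2049 without long MCh library b and 413 without long OVA library a. Scgb3a2 had an adjusted p of 0.0512 (log2 difference -0.89 ± 0.26, SE, limma), and it and Cbr2 did not overlap between groups, as in 4.07% of all genes in this direction. At an unadjusted p under 0.05 there were 3 members and 3897 of all genes. Bpifb1 stood at 2.91, 17.7, 25.0 and 6.18 FPKM in long MCh. Long OVA libraries a, c and d were above all of them and library b was among them, for a log2 difference of 2.47 ± 0.98 (adjusted p = 0.128), or 3.39 ± 0.92 (0.0377, limma) without library b.

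Between the long and short PBS groups no member was called, against 0.166% of all genes, and at an unadjusted p under 0.05 there were 2 members and 854 of all genes. Those 2 were the enzymes, which did not overlap between the groups, as in 9.16% of all genes in this direction. Cbr2 stood at 3055, 2739 and 4368 FPKM in long PBS, all below the lowest short PBS value of 4691, with a log2 difference of -0.66 ± 0.21 (SE, adjusted p = 0.405, limma). Aldh1a1 stood at 856, 865 and 995, all below 1130, with a log2 difference of -0.47 ± 0.13 (SE, adjusted p = 0.222, limma). Age at harvest and number of exposures differed between these groups and cannot be told apart.

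Several of the variable members varied together within groups. Over the deviations of the 22 libraries from their group means, on log2(FPKM + 0.5), Pearson's r lay between 0.899 and 0.945 for all 6 pairs of Scgb3a1, Bpifa1, Bpifb1 and Reg3g, and between 0.839 and 0.926 without the 2 libraries farthest from the median. Bpifa1 and Reg3g had the same highest library in 6 of 6 groups. Lypd2 gave 0.744 to 0.782 with these 4 and 0.824 with Scgb3a2, and Scgb3a2 with Scgb3a1 gave 0.769. Cbr2 and Aldh1a1 gave 0.730, and Cbr2 with Bpifa1 gave -0.136. Scgb1a1 gave 0.554 with Scgb3a1, 0.332 with Bpifa1, 0.420 with Bpifb1 and 0.427 with Reg3g. Without the 2 libraries farthest from its median, these values were 0.262, -0.0138, 0.0920 and 0.0466. These are descriptions, since all values of a point come from the same library and share its tissue sample, depth and scaling.

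**Figure D3:**
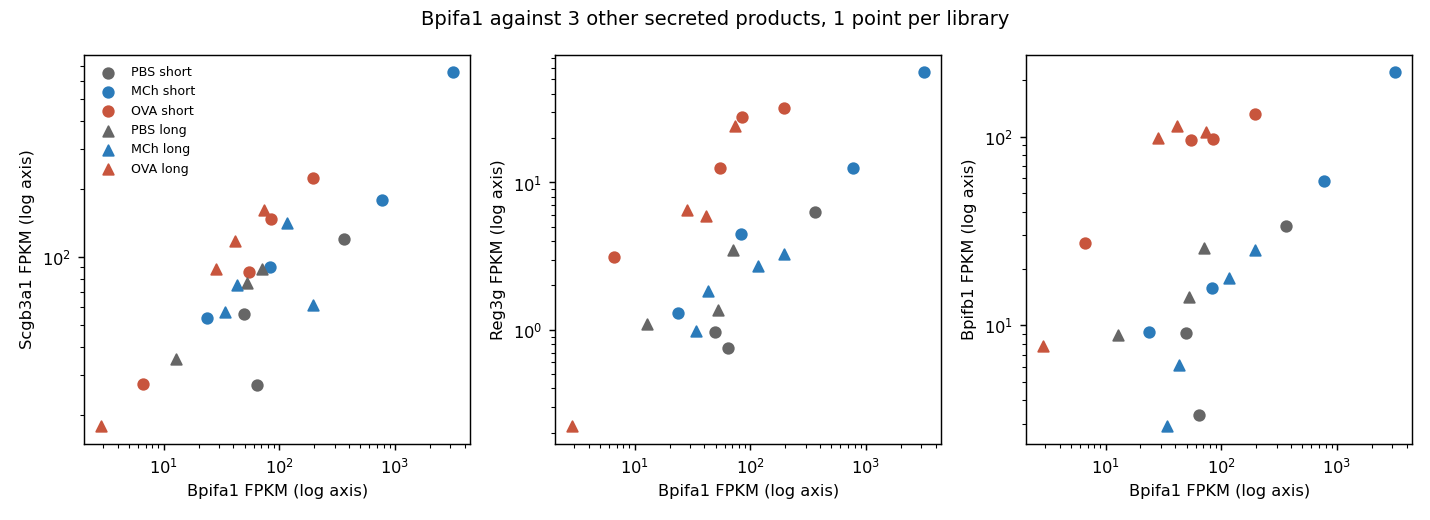
FPKM of Scgb3a1, Reg3g and Bpifb1 against Bpifa1 on log axes, 1 point per library, with circles for the short and triangles for the long protocol. The points rise together, and for Reg3g and Bpifb1 the OVA libraries lie above the PBS and MCh libraries of like Bpifa1 level.

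Within that shared variation, Bpifb1 was high relative to Bpifa1 in every OVA library. The ratio of Bpifb1 to Bpifa1 FPKM was 0.672 to 4.15 (median 1.45) in short OVA against 0.0522 to 0.183 (median 0.0931) in short PBS and 0.0693 to 0.386 (median 0.132) in short MCh. In the long protocol it was 1.46 to 3.48 (median 2.72) in OVA, 0.269 to 0.690 (median 0.367) in PBS and 0.0863 to 0.154 (median 0.136) in MCh. OVA did not overlap PBS or MCh of its own protocol, and library b, which was low in both genes, had a ratio within the range of its group's other libraries.

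Reg3g relative to Bpifa1 followed the same order in the short protocol. The ratio was 0.164 to 0.472 in short OVA, 0.0118 to 0.0194 in short PBS and 0.0163 to 0.0544 in short MCh, with no overlap of OVA and the rest. In the long protocol it was 0.0765 to 0.333 in OVA and 0.0259 to 0.0847 in PBS, which overlapped, and 0.0165 to 0.0431 in MCh. These ratios were chosen after the values had been seen and were not tested. The Reg3g transcript, of 771 bases, is shorter than that of Bpifa1, of 1106, and short OVA libraries favoured short transcripts. The ratios are given without the length trend removed.

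**Figure D4:**
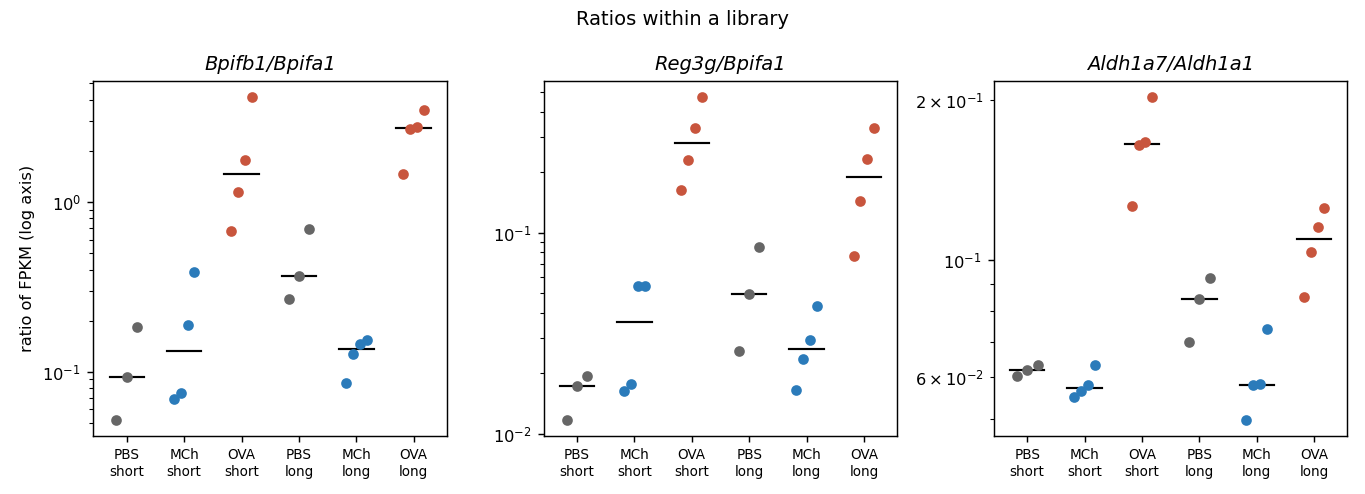
Ratios of FPKM within a library on log axes (points), with the group median as a bar, for Bpifb1 to Bpifa1, Reg3g to Bpifa1 and Aldh1a7 to Aldh1a1. The Bpifb1 to Bpifa1 ratio is at least 0.672 in every OVA library and at most 0.690 in every PBS and MCh library.

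By likeness over the 22 libraries, among 12772 genes whose mean FPKM reached 1, the 3 closest genes were taken for each member. Reg3g and Bpifb1 were each other's closest (r = 0.911), followed for Reg3g by Tff2, a mucus-associated trefoil peptide (0.890), and for Bpifb1 by Mx1, an interferon-induced GTPase (0.878). Scgb3a1 was closest to Ltf, the iron-binding lactoferrin (0.877), and Bpifa1 to Krt15, a keratin of basal and some secretory cells (0.877), with Csrp3, a muscle protein of heart, among its nearest 3 (0.779). Scgb3a2 was closest to Sec14l3 (0.905) and had Tppp3 among its nearest 3 (0.883), both on the list of ciliated cell markers used here. Cbr2 and Aldh1a1 shared Gsta3, a glutathione transferase on the club cell list, as closest (0.910 for each), Lypd2 was closest to Krt18 (0.862), and Scgb1a1 to Wfdc2 (0.744). They are correlations of libraries that differ in treatment and share depth, with no p.

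The wider club cell programme is described with 20 other club cell genes. In short OVA against PBS, 5 rose, 9 fell and 6 did not pass the test, with a median log2 difference of -0.36. Over all genes tested 12.4% rose and 11.7% fell, with a median of -0.06. The 4 with the smallest p were all lower: Cyp2f2, the cytochrome P450 that activates naphthalene in club cells (-1.28 ± 0.15, adjusted p = 3.72e-06), Pon1, a paraoxonase (-1.93 ± 0.23, 4.69e-06), Selenbp1, a selenium-binding protein (-0.99 ± 0.14, 6.56e-05), and Cyp4b1, another P450 (-1.02 ± 0.15, 8.87e-05, all limma). Cyp2f2 went from a mean of 1745 ± 206 (SD, n = 3) FPKM in short PBS to 721 ± 118 (SD, n = 4) in short OVA. The 5 that rose, named after their values were seen, were Pigr, the receptor that carries IgA into the lumen (2.21), Gsto1 (1.73), Cldn10 (1.24), Tst (0.93) and Nupr1 (0.87).

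In long OVA 1 of the 20 rose, Pigr (1.74 ± 0.41, adjusted p = 0.0390), and 3 fell, Pon1 (-1.21 ± 0.23, 0.00623), Selenbp1 (-0.66 ± 0.14, 0.0238) and Cyp4b1 (-0.69 ± 0.15, 0.0267, limma). None of the 20 was called in either MCh comparison. The summed level of the 20 was 5738 to 6238 FPKM in short PBS and 3442 to 4208 in short OVA. It was 4354 to 5102 in long PBS and 3402 to 3996 in long OVA. OVA and PBS did not overlap in either protocol. Among single genes tested, 29.2% separated in this direction in the short protocol, and no such share is given for the long protocol. Genes of high FPKM, such as Cyp2f2, weigh most in these sums. In long OVA 16 of the 20 were not called, in a comparison that called 1.18% of all genes in either direction. The median log2 difference over the 20 was -0.12, against -0.02 over all genes.

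**Figure D5:**
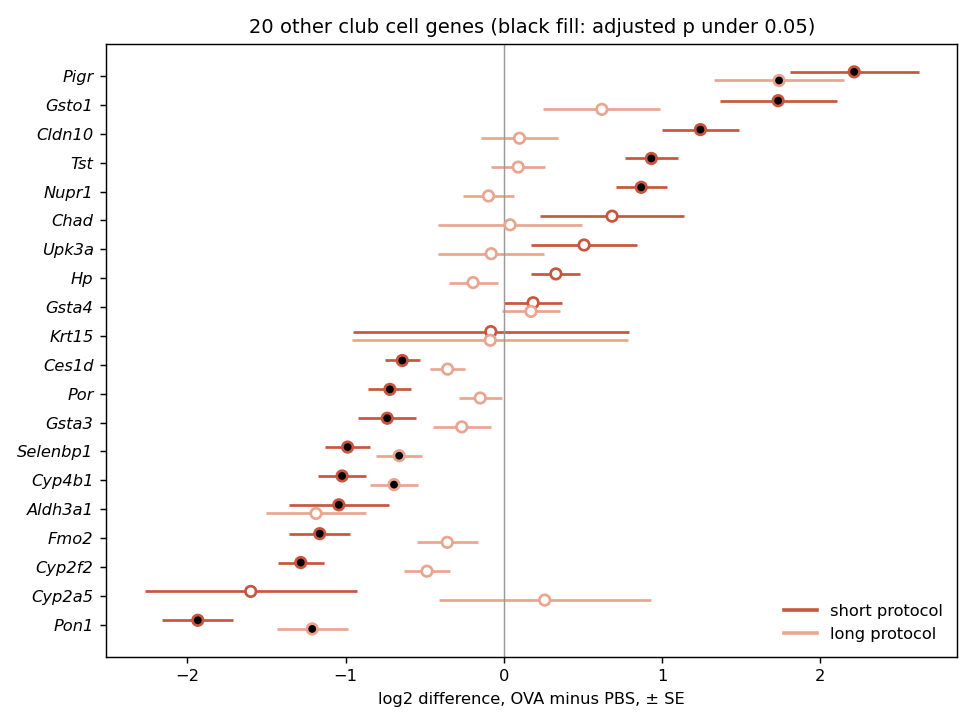
Log2 differences (points) with standard errors (bars) of 20 other club cell genes, OVA minus PBS, in the short (dark) and long (light) protocols; black points have an adjusted p under 0.05 in limma. Pon1 is at -1.93 and -1.21 and Pigr at 2.21 and 1.74.

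Markers of other cell types were read in short OVA against PBS, where 12.4% of all genes tested rose and 11.7% fell. Of 10 goblet cell markers 8 rose in short OVA, among them Clca1 (8.0 ± 1.4) and Agr2 (4.16 ± 0.67), and their summed level was 442 to 1610 FPKM against 11.1 to 76.0 in short PBS. Of 15 ciliated cell markers 1 fell (Sec14l3, -0.39 ± 0.11, adjusted p = 0.0113, limma) and none rose, and the sum was 816 to 1090 against 1049 to 1255. Sec14l3 weighs most in this sum, with a mean of 891 FPKM in short PBS and 682 in short OVA. The median log2 difference over the 15 was 0.06, against -0.06 over all genes. Of 6 basal cell markers 1 fell (Snai2, -1.10 ± 0.30, adjusted p = 0.0107, limma) and none rose, with sums of 6.67 to 12.9 against 6.27 to 12. Of 8 leukocyte markers 4 rose, with sums of 234 to 322 against 114 to 183. None of 8 cardiac muscle markers was called, with sums of 60.0 to 276 against 125 to 549. Of 7 alveolar type 1 markers 4 fell and none rose, with a median log2 difference of -0.61. Their sums were 1325 to 1637 against 1674 to 2106, without overlap. In the long protocol none of the 7 was called, and the sums were 1710 to 2149 in OVA and 2220 to 2356 in PBS. The part of these markers in the members' values was not tested.

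Relatives of the secreted members were mostly at or near 0. Of 13 other secretoglobin genes 1, Scgb1c1, passed the filter, and it was not called (-0.29 ± 0.54 in short OVA, adjusted p = 0.751, limma). Of 15 other BPI-fold family genes 3 passed. Of these Pltp, the phospholipid transfer protein, fell in short OVA (-0.87 ± 0.15, adjusted p = 0.000356, limma), as did 11.7% of all genes tested. Bpifa2 was listed at 0 in every library. Of 6 other Reg lectins only Reg1 passed, at no more than 0.288 FPKM, and Reg3b was listed at 0 in 21 of 22 libraries.

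Relatives of the enzymes were expressed more widely. Of 13 paralogs of Cbr2, Aldh1a1 and Lypd2, 10 passed the filter. In short OVA 3 of the 10 rose and none fell, where 12.4% of all genes tested rose and 11.7% fell. The 3 were Aldh1a7 (1.11 ± 0.13, adjusted p = 3.96e-06), Aldh1a3, another retinaldehyde dehydrogenase (3.68 ± 0.44, 6.77e-06), and Cbr3 (0.85 ± 0.29, 0.0367, limma). Aldh1a7 rose from a mean of 77.4 ± 8.24 (SD, n = 3) FPKM to 167 ± 15.4 (SD, n = 4), with no overlap, as in 23.2% of all genes tested in this direction. Its ratio to Aldh1a1 was 0.126 to 0.203 in short OVA against 0.0603 to 0.0633 in short PBS and 0.0550 to 0.0634 in short MCh. In the long protocol the ratio was 0.0848 to 0.125 in OVA and 0.0699 to 0.0924 in PBS, which overlapped. Aldh1a7 was not called there (0.22 ± 0.13, adjusted p = 0.867, limma), nor was any of the 10, against 1.18% of all genes. The copies are similar in sequence, and how reads shared by both were counted is not given in the sources used here, so the split between them is uncertain.

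Several other genes on a list of secreted airway antimicrobial proteins rose, though bulk lung does not show which cells made their transcripts. Of 17 such genes 14 passed the filter, and in short OVA 5 rose and 1 fell. Over all genes tested 12.4% rose and 11.7% fell there. Lcn2, which binds bacterial siderophores, rose by 2.84 ± 0.26 (adjusted p = 2.03e-07) and Chil1, a chitinase-like protein, by 2.25 ± 0.18 (2.68e-08). Slpi, a protease inhibitor, rose by 1.89 ± 0.33 (0.000353) in short OVA and by 3.60 ± 0.33 (6.77e-06, limma) in long OVA, from 6.49 ± 1.53 (SD, n = 3) to 92.7 ± 53.1 (SD, n = 4) FPKM in the latter. In long OVA, where 1.18% of all genes were called in either direction, 3 of the 14 rose: Slpi, Lcn2 (1.67 ± 0.26) and Chil1 (1.11 ± 0.18).

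Among 13 receptors and signals that lie upstream of Reg3g in epithelia, 10 passed the filter, and 2 rose and 2 fell in short OVA. These counts stand against 12.4% of all genes tested that rose and 11.7% that fell. Il6, a cytokine that signals through STAT3, rose by 2.13 ± 0.11 (adjusted p = 9.6e-11) and Socs3, a STAT3 target and feedback inhibitor, by 2.29 ± 0.22 (5.19e-07). Il6ra, the IL-6 receptor, fell by 1.02 on the log2 scale (0.000237), as did Il22ra2, a soluble decoy receptor for IL-22, by 0.92 (0.0215, limma). In long OVA Socs3 alone was called (0.98 ± 0.22, adjusted p = 0.0306, limma), against 1.18% of all genes.

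Of 20 airway transcription factors and Notch pathway genes, 4 rose and 6 fell in short OVA, where 12.4% of all genes tested rose and 11.7% fell. None of the 20 was called in long OVA, against 1.18% of all genes, or in MCh. Nkx2-1, the lung lineage factor, fell by 0.63 on the log2 scale (adjusted p = 0.000431), Notch3 by 1.54 (0.00103) and its ligand Jag2 by 0.88 (0.00142), while Ehf, an epithelial ETS factor, rose by 0.91 ± 0.18 (0.00102, limma). Short OVA libraries favoured short transcripts, and these differences, like those of the other gene lists, are given without the length trend removed. Nkx2-1 is also made by alveolar type 2 cells. Of 8 markers of these cells 3 fell in the same comparison, among them Sftpb (-0.93 ± 0.14) and Abca3 (-0.78 ± 0.16), 2 rose, Sftpa1 (0.92 ± 0.17) and Lamp3 (0.37 ± 0.09), and 3 did not pass the test. Their summed level was 19251 to 20971 FPKM in short OVA against 15060 to 16534 in short PBS, and its part in these differences was not tested.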

How the data were processed

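Per the labels' protocols, total lung RNA was extracted with RNeasy kits, treated with DNase I and made into TruSeq Stranded Total RNA libraries. The tables deposited by the authors hold FPKM values of 20938 genes and of 36844 transcripts. The submitters' processing notes name Trim Galore, STAR, DESeq2 and mm10. Which program computed FPKM, and on what annotation, is not given in the sources used here. FPKM tables hold no counts; the smallest steps of FPKM implied 15.1 to 25.5 fragments per kilobase at 1 FPKM, so that the fewest estimated fragments behind a value were 28.2 for Reg3g, 47.7 for Bpifa1, 77.2 for Bpifb1 and 99.7 for Lypd2.

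In the column names, Control stands for PBS, Menth for MCh, 72h for the short and 1M for the long protocol. Genes reaching 0.1 FPKM in 3 or more libraries were taken to log2(FPKM + 0.5), which understates folds of low genes. One coefficient per group was fitted over all 22 libraries by lmFit, contrasts.fit and eBayes with trend (limma 3.58.1, R 4.3.3), and two-sided p-values were adjusted by Benjamini-Hochberg across the 15682 genes of each of 9 contrasts. A gene is called where its adjusted p is under 0.05. The procedure was tested on simulated data. The members and gene lists were chosen with earlier results of these data known. Besides the members, up to 4 genes per list with the smallest p in OVA against PBS are named, with Aldh1a7, Reg3b and Bpifa2, and the 3 genes most correlated with each member were sought. Alternatives varied the pseudocount, filter, scaling, weights, libraries, length trend and pairing; one, without 4 libraries of low array weight, was chosen after seeing the data.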

Additional observations from a re-analysis of the deposited data

Results flagged for a closer look

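In each group of 4 libraries the gap between the most extreme library and its nearest neighbour was compared with the group's range, over 36 combinations of member and group, and chance would mark about 1 in 20. In long MCh, Scgb1a1 was 33662 FPKM in library c, against 39507 to 39652 in the other 3, and library c had 33.8% of genes at 0. In long OVA, Bpifb1 was 7.73 FPKM in library b, against 97.8 to 114 in the other 3.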

How the results depend on the processing

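The 2 members called between OVA and PBS in the short protocol became 1 with no filter, 5 with quantile normalization or array weights, 4 when only its groups were fitted, 4 without the 3 libraries with most genes at 0 and 6 without the 4 libraries with an array weight under 0.25 (chosen after seeing the data), and 0 to 3 when 1 library was left out. Over all genes the 3790 calls of that comparison became 7994 with array weights, 7589 when only its groups were fitted, 6738 and 8468 without those 3 or 4 libraries, and as few as 2009 without PBS library 3. Without 1 library at a time, the counts over all genes ranged from 86 to 197 in long OVA against PBS (185 with all libraries; lowest without PBS library 3, and also over 1.5 times fewer without PBS library 1 or 2 or OVA library a or d), 1556 to 4835 in short OVA against MCh (2381; highest without MCh library 4, lowest without OVA library 1), 413 to 2403 in long OVA against MCh (951; also over 1.5 times fewer without MCh library c or OVA library c or d), 1 to 781 in long MCh against PBS (10; highest without MCh library d, lowest without PBS library 2 or MCh library c), 0 to 34 between the PBS groups (26; none without long library 2 or short library 3) and 132 to 311 in the comparison of OVA effects (295; lowest without long PBS library 2). With array weights these became 2047, 8984, 2150, 149, 1655 and 4893. In OVA against PBS in the long protocol 1 member was called with array weights. In OVA against MCh in the short protocol the 3 became 5 with array weights and 1 when only its groups were fitted, and 2 to 3 with 1 library left out. In the long protocol none became 1 with a filter at FPKM 1, with median-of-ratios scaling and with sums of transcripts, 2 with quantile normalization, 2 with array weights, 3 with the length trend removed, and 0 to 1 with 1 library left out. Between the PBS groups 2 were called with array weights and 2 without the 4 libraries. No called value changed sign, and except where a setting uses fewer libraries or genes the cause was not tested. Same-numbered libraries had correlated deviations of -0.270 to 0.356, over 0.1 in 1 of 13 pairs, so the numbers were not taken to pair mice. A fit with the replicate block, over the 14 numbered libraries, called 1 member in short OVA against PBS (Lypd2, adjusted p = 0.0462), with Scgb3a2 at 0.0574, and 2 in short OVA against MCh, with Aldh1a1 at 0.0686 (limma). Estimated depth is lowest for Reg3g and Bpifa1 in long OVA library b.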
